A study of Homo sapiens with 42 samples.

Results

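The nuclear genes for the subunits of the mitochondrial respiratory chain and ATP synthase were examined in cell lines of acute lymphoblastic leukaemia (ALL), a human cancer of lymphocyte precursors, after L-asparaginase. They were taken by symbol: genes named NDUFA, NDUFB, NDUFC, NDUFS or NDUFV with a number for complex I, SDHA to SDHD for complex II, and named sets of UQCR, COX and ATP5 genes for complexes III, IV and V. This gave 75 of the 50648 gene symbols found in every table, of which 37 fell under complex I, 4 under complex II, 8 under complex III, 11 under complex IV and 15 under complex V. The grouping follows the symbol: NDUFA4 counts under complex I by its name, although its protein is known as a subunit of cytochrome c oxidase (complex IV). All 75 passed the filter on low counts and were tested in every comparison. The files use older ATP synthase symbols, such as ATP5B for the gene now called ATP5F1B.

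RNA was sequenced from 7 established lines. The T-cell lines are CEM and DND41, and the other 5, Nalm6, SUPB15, RS411, REH and 697, are of B-cell precursor origin. As background, SUPB15 carries the BCR-ABL1 fusion, RS411 KMT2A-AFF1 and REH ETV6-RUNX1. In each line 3 cultures received L-asparaginase at 1 IU/ml for 4 h and 3 were left untreated, all in RPMI-1640 medium with fetal bovine serum and added glutamine, so n = 3 per group within a line and 42 libraries in all. The drug is an enzyme that removes asparagine, and some glutamine, from around the cells. Replicates are labelled as independent experiments, but each line is a single culture lineage, so p-values measure the spread between cultures of that line and not between patients.

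Complex I takes electrons from NADH and complex II from succinate; both hand them to ubiquinone, complex III passes them on to cytochrome c, and complex IV gives them to oxygen. Proton pumping by complexes I, III and IV drives complex V, the ATP synthase. Most subunits are made from nuclear genes, and a small set, including the central pumping subunits of complex I and the catalytic centre of complex IV, comes from mitochondrial DNA. Complex II has nuclear subunits only. The mitochondrially encoded genes had no symbol in the tables and are not analysed here. In leukaemia cells this pathway supplies ATP and also lets the cell make aspartate, from which asparagine is built.

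Library totals lay between 15.07 and 77.14 M (M, 1e6 counts), and depth differed by treatment in CEM, with 50.81 to 71.52 M in treated and 22.68 to 31.60 M in untreated libraries. The drug response was present on average over the lines: 5 of 5 genes of the amino acid stress response (DDIT3, TRIB3, ASNS, CHAC1 and SESN2) were higher, with a median log2 fold change of 2.28. These genes were listed to show that the drug acted, and the lists were chosen with earlier results of these data known. Their values in single lines are not given here. Lineage markers fitted the labels, with medians of 109 to 212 CPM (counts per 1e6, on TMM-scaled library sizes) treated and 117 to 205 CPM untreated for 8 B-lineage genes in the 5 B lines, and 122 and 221 CPM treated against 124 and 216 CPM untreated for 8 T-lineage genes in CEM and DND41. The summed T-lineage genes were lower in treated than in untreated libraries, without overlap, in Nalm6 (27.3 to 34.4 against 56.4 to 66.6 CPM) and DND41 (1497 to 1585 against 1858 to 2067 CPM). They were higher without overlap in SUPB15 (10.9 to 13.9 against 5.88 to 8.90 CPM) and REH (29.2 to 41.7 against 14.8 to 22.2 CPM), and overlapped in RS411, 697 and CEM, where RS411 reached the highest sum of any B line, 80.9 to 120 CPM treated and 46.5 to 90.9 CPM untreated. The B-lineage genes summed to 36.8 to 49.7 CPM in treated CEM and 55.6 to 65.0 CPM in untreated CEM. In DND41 the B-lineage genes summed to 676 to 935 CPM treated and 648 to 1064 CPM untreated, with 2 of 8 at 0 throughout. Myeloid genes summed to 19.9 to 22.3 CPM in treated RS411 and 6.71 to 12.6 CPM in untreated RS411, and to 4.38 to 4.91 CPM in treated and 1.45 to 3.11 CPM in untreated 697. They were highest in REH, at 35.0 to 61.7 CPM treated and 24.8 to 65.4 CPM untreated. In SUPB15 they were at 15.6 to 24.8 CPM treated and 7.60 to 15.9 CPM untreated, and the groups overlapped in both lines. The part of these cell markers in the results was not tested, and erythroid genes summed to at most 0.066 CPM and stromal genes to at most 2.84 CPM in any library. Treated libraries SUPB15 C, REH A and RS411 B held 89, 18 and 3 genes at 1 CPM or more that summed to 3 counts or fewer over the other 5 libraries of the line. Without these 3 libraries 23 subunit genes were called on average, as with them, and 34.1% of all genes.

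A further set of libraries stood apart, and not only in the subunit genes. The untreated library lettered A (numbered 1 in 697) had the lowest summed level of the 75 genes of its group in all 7 lines. It was the lowest of the 3 untreated libraries for 57 of the 75 genes in Nalm6, 60 in SUPB15, 53 in RS411, 69 in REH, 54 in 697, 66 in CEM and 47 in DND41. Among the 75 it was highest for between 4 (REH and CEM) and 17 (697). Over all genes with a mean of at least 2 CPM, here without TMM scaling, the same library was lowest for 24.4% to 47.1% and highest for 40.0% to 52.9%. The ranks of the 75 used TMM-scaled CPM, so these shares are on another scale and are not a like background for them. The treated library A also had the lowest sum of its group in 5 lines: 8093 CPM in Nalm6, 6294 in SUPB15, 7210 in RS411, 7977 in REH and 6603 in DND41. In CEM and 697 the treated library A or 1 was not the lowest. As a share of raw counts, without TMM scaling, treated A was instead the highest of its group in Nalm6 (0.881% against 0.858% and 0.843%) and DND41 (0.731% against 0.705% and 0.703%). It stayed the lowest in SUPB15, RS411 and REH. On that scale untreated DND41 A (0.800%) lay between B (0.785%) and C (0.874%), and in the other lines untreated A or 1 stayed the lowest. Results are also given without the untreated one in 5 lines (Nalm6, SUPB15, RS411, 697 and DND41), called the first untreated library below. Counts without the library A or 1 of both arms were added after this was seen.

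**Figure D1:**
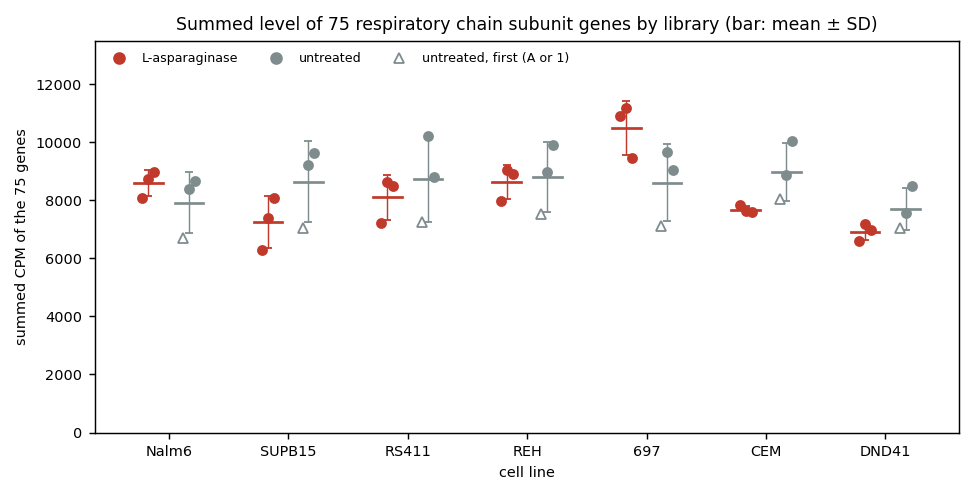
Summed CPM of the 75 subunit genes (y axis) in each library by cell line (x axis), with L-asparaginase in red and untreated in grey; bars are the mean with SD, n = 3 per group. The open triangle, the untreated library A or 1, is the lowest untreated point in every line, and only in CEM do the treated points (7608 to 7826) all lie below the untreated ones (8047 to 10045).

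The summed level was 7826, 7619 and 7608 CPM in the 3 treated CEM libraries and 8047, 8863 and 10045 CPM in the untreated ones. In SUPB15 it was 6294, 7406 and 8086 CPM treated against 7043, 9224 and 9642 CPM untreated, and in 697 it was 10895, 11177 and 9446 CPM treated against 7132, 9654 and 9048 CPM untreated. The groups overlapped in every line except CEM. In the other lines the group means were 8602 treated and 7916 CPM untreated in Nalm6, 8109 and 8753 in RS411, 8644 and 8800 in REH, and 6926 and 7699 in DND41. In RNA from whole cultures, fewer cells of a kind and less RNA per cell cannot be told apart, and CPM gives a share of the library, not an amount.

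Promoters of subunit genes are known for sites of nuclear respiratory factor 1 (NRF1), of the ETS-family factor GABP and of YY1. The RefSeq promoter table (GRCh38.p14, 250 bases before to 50 after the start) held 62 of the 75 genes. Fixed letters were searched on both strands: CCGGAAGT for GABP, the 10 letters in capitals in the ATP5C1 stretch below for NRF1, which read the same on both strands, and the 10 in capitals in the ATP5J stretch for YY1. NRF1 letters were found in 4 of the 62 promoters (6.45%) and in 1.36% of all 27305 promoters. GABP letters were found in 9 (14.5%) against 4.44%, and YY1 letters in 7 (11.3%) against 1.28%. No match of 1 motif overlapped another in these 62 promoters.

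The stretches below are examples from genes called on average, and not the genes with the largest changes. UQCRB (average log2 fold change -0.38) and SDHA (-0.33) fell more than UQCRH (-0.18) and ATP5C1 (-0.20) but are not shown. NDUFS1, SDHD and UQCR11 were higher after L-asparaginase, and UQCRH, ATP5C1 (now ATP5F1C), COX7B and NDUFB3 were lower. Each is the 160 bases before the annotated start, read 5′ to 3′ on the gene's strand, with motif letters in capitals (ACTTCCGG is CCGGAAGT on the other strand). ATP5J (now ATP5PF), a peripheral-stalk subunit with no call, is added to show the YY1 letters.

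NDUFS1, chr2:206159445-206159604, minus strand: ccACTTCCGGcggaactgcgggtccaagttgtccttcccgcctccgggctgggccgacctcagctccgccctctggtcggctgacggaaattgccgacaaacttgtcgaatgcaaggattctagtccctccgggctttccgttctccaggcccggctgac
SDHD, chr11:112086713-112086872, plus strand: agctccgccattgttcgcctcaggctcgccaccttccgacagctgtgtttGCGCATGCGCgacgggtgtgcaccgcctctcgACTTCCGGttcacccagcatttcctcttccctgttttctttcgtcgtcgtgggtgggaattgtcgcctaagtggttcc
UQCR11, chr19:1605463-1605622, minus strand: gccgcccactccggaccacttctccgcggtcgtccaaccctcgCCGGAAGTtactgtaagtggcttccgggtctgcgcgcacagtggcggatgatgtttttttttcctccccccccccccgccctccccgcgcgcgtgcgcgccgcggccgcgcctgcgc
UQCRH, chr1:46303538-46303697, plus strand: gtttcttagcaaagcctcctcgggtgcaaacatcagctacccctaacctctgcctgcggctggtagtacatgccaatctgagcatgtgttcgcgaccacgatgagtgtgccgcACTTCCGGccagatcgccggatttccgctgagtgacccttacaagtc
ATP5C1, chr10:7788017-7788176, plus strand: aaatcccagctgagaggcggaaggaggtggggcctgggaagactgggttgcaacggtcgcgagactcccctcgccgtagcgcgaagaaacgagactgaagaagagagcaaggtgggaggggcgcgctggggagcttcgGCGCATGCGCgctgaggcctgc
COX7B, chrX:77899308-77899467, plus strand: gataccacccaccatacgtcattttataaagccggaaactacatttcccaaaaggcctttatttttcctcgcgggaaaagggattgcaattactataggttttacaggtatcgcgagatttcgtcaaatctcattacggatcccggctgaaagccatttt
NDUFB3, chr2:201071841-201072000, plus strand: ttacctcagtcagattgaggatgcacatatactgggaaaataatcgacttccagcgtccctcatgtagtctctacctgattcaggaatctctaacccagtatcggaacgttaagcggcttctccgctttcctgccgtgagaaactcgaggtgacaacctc
ATP5J, chr21:25735055-25735214, minus strand: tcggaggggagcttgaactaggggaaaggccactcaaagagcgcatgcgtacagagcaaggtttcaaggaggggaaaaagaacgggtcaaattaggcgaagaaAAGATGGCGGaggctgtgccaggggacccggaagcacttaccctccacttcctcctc

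All 3 of the higher genes shown held GABP letters, as did UQCRH among the lower ones, and SDHD and ATP5C1 held NRF1 letters. NDUFB9, also higher on average, had no promoter to search. COX7B and NDUFB3 held none of the 3 motifs in the whole 300-base window. Of the 14 genes lower on average that had a promoter in the table, 1 held GABP letters and 2 held NRF1 letters (NDUFB4 and ATP5C1). Of the 45 with no call, 5 held GABP letters, 1 NRF1 letters and 7 YY1 letters. These are matches of letters only, in few genes.

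The average response is the mean of the log2 fold changes of the 7 lines. Its SE and p-value rest on the spread between replicate libraries within lines, so a call does not mean that the lines agreed. COX7B, for example, was called lower on average with a negative value in 5 lines and a positive one in 2. After 4 h, 4 subunit genes were higher and 19 lower, with a median log2 fold change of -0.04 over the 75. Over all 20983 genes tested 37.4% were called (17.8% higher and 19.6% lower), and their median was -0.02. The members called lower therefore made up 25.3% and those called higher 5.33%, against those background shares. The calls are adjusted p under 0.05 in edgeR's quasi-likelihood test with Benjamini-Hochberg adjustment over all genes. The 19 falls were at most 1.42-fold.

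Complex IV had the largest fall. COX7B, a small membrane subunit of cytochrome c oxidase, fell by 0.51 ± 0.05 on the log2 scale (SE, adjusted p = 1.7e-10), or 1.42-fold. COX6C and COX7A2, also small nuclear-encoded subunits at the edge of the enzyme, were lower at -0.24 ± 0.08 (adjusted p = 0.0096) and -0.20 ± 0.07 (adjusted p = 0.022). No other of the 11 complex IV genes was called, and COX4I1, a large subunit that contacts the catalytic core, was at -0.03 ± 0.05 (adjusted p = 0.86). COX6C lost its call without DND41 (-0.13, adjusted p = 0.22). COX7A2 did so without DND41 (-0.08, adjusted p = 0.52), SUPB15 (-0.16, adjusted p = 0.10) or CEM (-0.17, adjusted p = 0.098).

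In complex I, 2 of 37 genes were higher and 10 lower, with a median of 0.03. Among the 7 nuclear core subunits, among them those that carry the flavin and the iron-sulfur clusters, NDUFS1, the largest of them, was higher at 0.10 ± 0.03 (adjusted p = 0.0075, and 0.14 with no filter on low counts), and NDUFV2 (-0.44 ± 0.14, adjusted p = 0.014) was lower. NDUFV2 had only 5.37 CPM on average in untreated lines, its pseudogene row NDUFV2P1 held 26.3% as many counts and its antisense row 17%, and whether counting used strand is not stated, so its value is uncertain. Without the 5 first untreated libraries it was -0.17 (adjusted p = 0.29), and it lost its call without RS411, 697 or DND41 (adjusted p 0.057 to 0.078). Of the 30 other genes grouped under complex I by symbol, NDUFA4 included, 8 were lower and NDUFB9, in the membrane arm, was higher at 0.19 ± 0.05 (adjusted p = 0.0033). NDUFB3 fell by 0.37 ± 0.05 (adjusted p = 3.4e-07), NDUFC1 by 0.32 ± 0.11 (adjusted p = 0.019) and NDUFS5 by 0.27 ± 0.06 (adjusted p = 0.00026); the first 2 lie in the membrane arm and NDUFS5 on its intermembrane-space side. NDUFC1 lost its call without SUPB15 (-0.22, adjusted p = 0.14) or CEM (-0.25, adjusted p = 0.13), and was -0.50 without the 5 first untreated libraries. NDUFS5 was -0.17 without SUPB15 (adjusted p = 0.040). The others called lower were NDUFA1, NDUFA3, NDUFA10, NDUFB1 and NDUFB4, between -0.12 and -0.27.

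Complex II split by subunit. SDHA, the flavoprotein that oxidises succinate, fell by 0.33 ± 0.05 (adjusted p = 3.3e-07), and SDHD, a membrane anchor, was higher at 0.20 ± 0.07 (adjusted p = 0.026). SDHB, the iron-sulfur subunit, was at 0.02 ± 0.05 (adjusted p = 0.92) and the other anchor, SDHC, at -0.12 ± 0.07 (adjusted p = 0.17). SDHD lost its call without the first untreated libraries (0.11, adjusted p = 0.13), without Nalm6 (0.18) and without 697 (0.16). Rows named as SDHA pseudogenes held 7.04% (SDHAP1) and 1.5% (SDHAP3) as many counts as SDHA.

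Complex III had the largest rise. UQCR11, a small subunit of 10.3 CPM in untreated lines, was higher at 0.38 ± 0.06 (adjusted p = 2.2e-06), or 1.304-fold, and positive in 7 of 7 lines. UQCRB, a small subunit near the ubiquinone site, fell by 0.38 ± 0.10 (adjusted p = 0.0039), UQCRC2, a core protein of the matrix side, by 0.30 ± 0.04 (adjusted p = 8e-07), and UQCRH, the hinge protein next to cytochrome c, by 0.18 ± 0.05 (adjusted p = 0.0065). UQCRB depended on the first untreated libraries: it was -0.15 without those of 5 lines (adjusted p = 0.045) and -0.25 without untreated 697 library 1 alone. UQCRH lost its call without SUPB15 (-0.11, adjusted p = 0.15). UQCRC1, the partner core protein of UQCRC2, was at 0.06 ± 0.10 (adjusted p = 0.78), and at -0.06 without the first untreated libraries.

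In complex V, 2 of 15 genes were lower. ATP5J2, the f subunit of the membrane part, fell by 0.29 ± 0.06 (adjusted p = 0.00020), and ATP5C1, the gamma subunit that turns inside the catalytic head, by 0.20 ± 0.06 (adjusted p = 0.0039). ATP5B, the catalytic beta subunit, was at 0.17 ± 0.09 (adjusted p = 0.13) with all libraries, 0.20 with the replicate as a block (adjusted p = 0.046) and 0.04 without the first untreated libraries. In 697 it had 1139, 1084 and 988 CPM treated and 349.6, 889.5 and 880.2 CPM untreated, so untreated library 1 was far below the rest. Neither the 3 genes of the c ring nor the 4 of the peripheral stalk held a call, with medians of -0.11 and -0.09.

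Without the first untreated library of 5 lines, the average response had 4 subunit genes higher and 30 lower, against 40.0% of 21892 genes called (20.1% higher and 19.8% lower). The median was then -0.09 for the 75 genes and 0.01 for all genes. Of these calls 17 lower and 3 higher were shared with the result from all libraries. The added calls lay mainly in the last 2 complexes: 6 of 11 complex IV genes and 8 of 15 complex V genes were lower, among them ATP5A1 (-0.19, adjusted p = 0.00039), ATP5G1 (-0.29, adjusted p = 2.7e-05) and COX6B1 (-0.23, adjusted p = 0.00015). SDHD, NDUFV2 and NDUFA10 were no longer called. Without library A or 1 of both arms 5 were higher and 31 lower, against 41.3% of all genes called (21.2% lower, the rest higher).

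**Figure D2:**
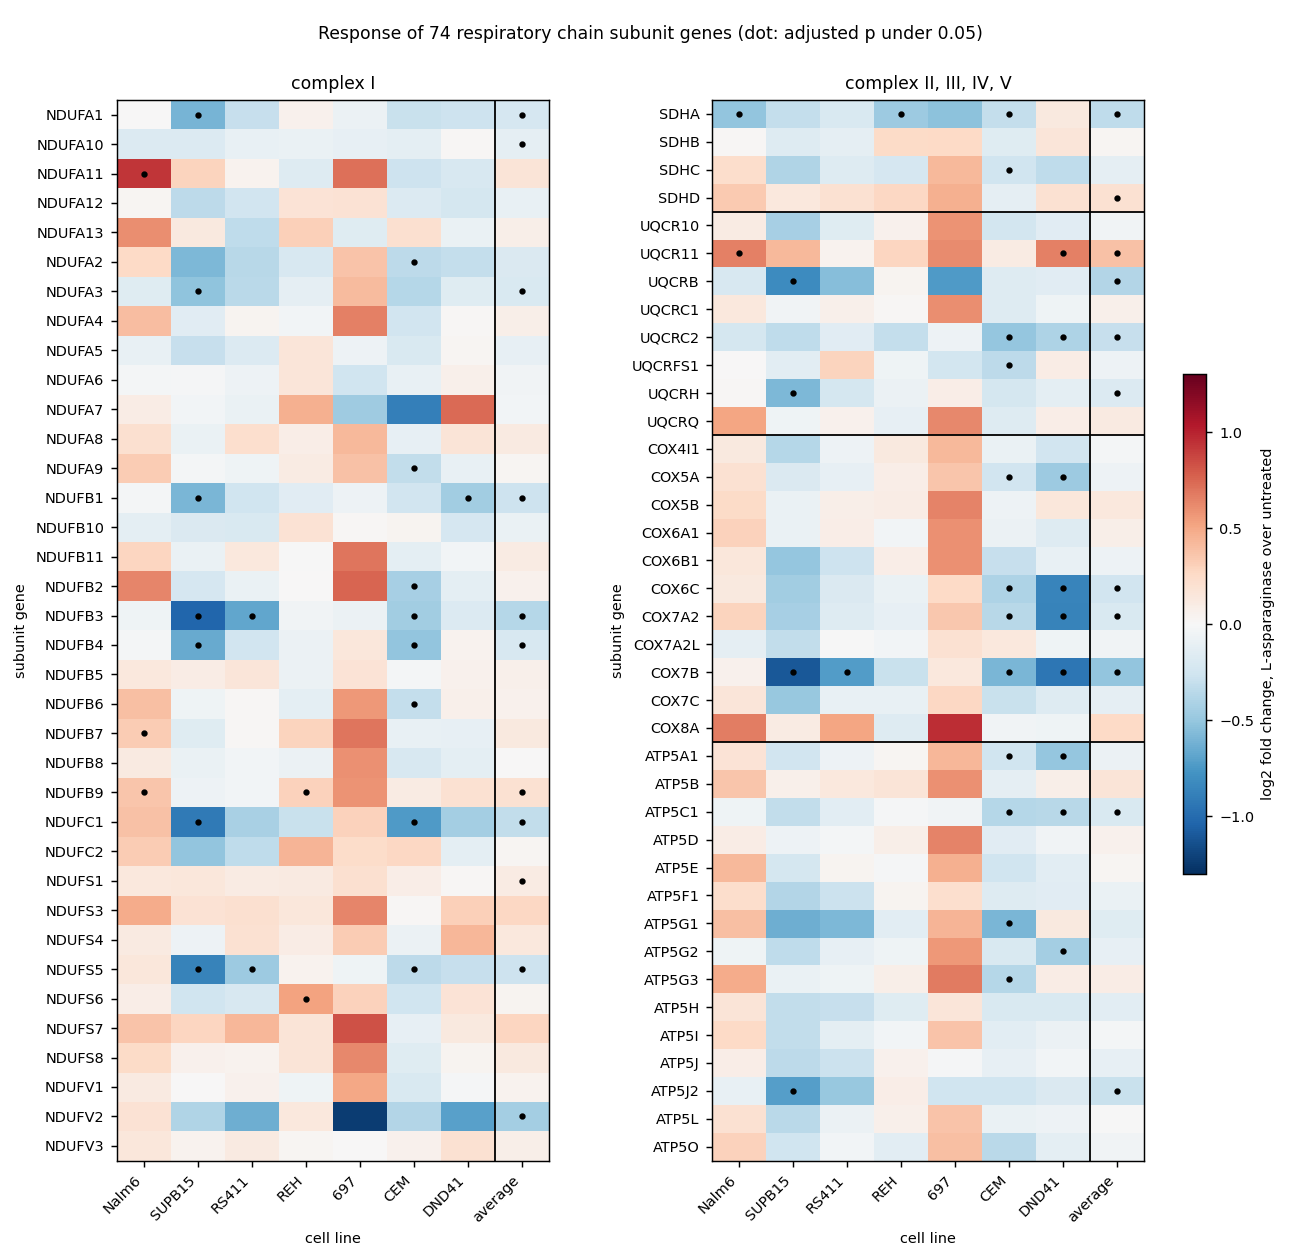
Log2 fold change, L-asparaginase over untreated, for 74 of the 75 genes (rows, by complex) in each line and on average (columns); red is higher, blue is lower, and a dot marks an adjusted p under 0.05. COX7B carries dots in SUPB15, RS411, CEM and DND41, and the 697 column has no dot although 57 of the 74 values shown are positive.

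Within lines, the calls went in different directions. Subunit genes were called lower in at least 1 line for 28 of the 75 and higher for 5, 42 were called in no line, and none was called in both directions. Of the 11722 genes tested in all 7 lines, 66.6% were called in at least 1 line, 34.6% lower, 36.2% higher and 4.25% in both directions. COX7B was lower in 4 lines, and NDUFB3, NDUFS5 and SDHA were each lower in 3. NDUFB9 and UQCR11 were each higher in 2. In each line up to 4 called genes were chosen by rule to be given with values, among those without overlap of the groups. Their lack of overlap in that line is therefore no separate result.

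COX7B had 52.4, 62.1 and 66.4 CPM in treated SUPB15 and 113.5, 131 and 138.5 CPM in untreated SUPB15. In DND41 it had 73.0, 66.8 and 67.5 CPM treated against 134, 120.6 and 152 CPM untreated, and in RS411 69.0, 73.4 and 72.7 CPM treated against 109, 134 and 117 CPM untreated. The groups did not overlap in any of these 3 lines, and they did not overlap in CEM either (83.3, 80.9 and 85.4 CPM treated, 115, 118 and 146 CPM untreated). REH had 112, 103 and 92.4 CPM treated and 126, 125 and 136 CPM untreated, again without overlap, but did not pass the test (-0.29). In Nalm6 the values were 88.7, 89.6 and 106.6 CPM treated and 86.7, 88.3 and 105.3 CPM untreated, and in 697 they were 165, 167 and 124 CPM treated and 112, 148 and 150.4 CPM untreated. Both of these overlapped. Treated values thus all lay below untreated ones in 5 lines, and 4 of these passed the test.

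**Figure D3:**
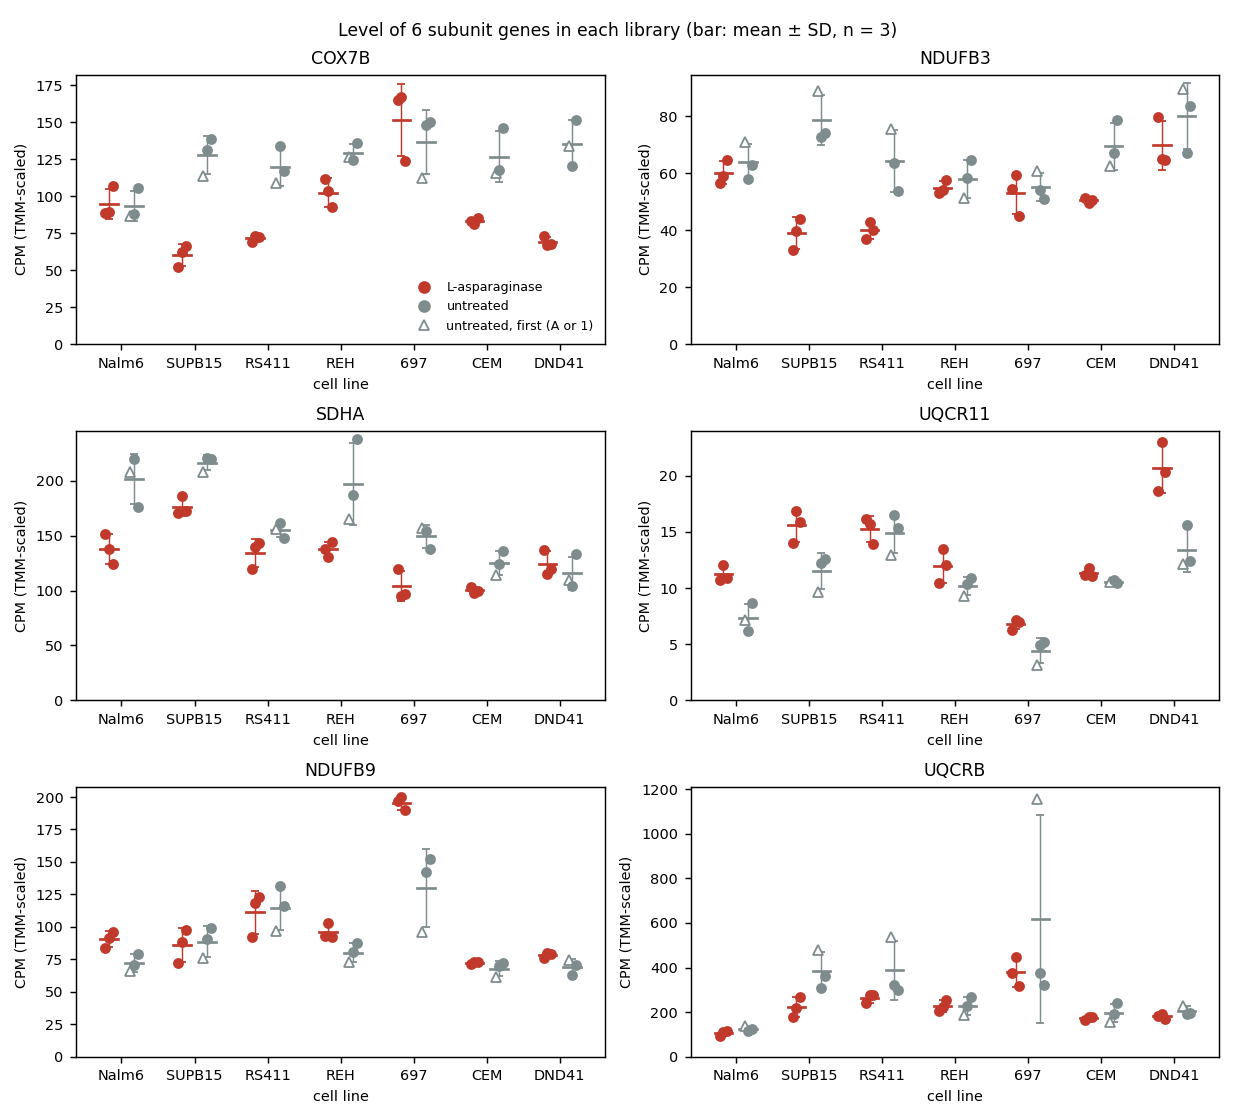
TMM-scaled CPM (y axis) of 6 subunit genes in every library by line (x axis), L-asparaginase in red left of untreated in grey; bars are mean and SD, n = 3, and the open triangle is the untreated library A or 1. Treated COX7B lies below untreated in SUPB15, RS411, REH, CEM and DND41, and untreated 697 library 1 stands at 1158 CPM for UQCRB against 373 and 321 CPM in the other 2.

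In SUPB15, 12 subunit genes were lower and none higher, at a background of 26.1% of 15121 genes (12.9% higher and 13.2% lower), with a median of -0.24 over the 75 and -0.03 over all genes. COX7B fell by 1.10 ± 0.13 (adjusted p = 0.0010), or 2.15-fold, and NDUFB3 by 1.04 ± 0.15 (adjusted p = 0.0020), or 2.05-fold. NDUFB3 had 33.0, 39.8 and 44.0 CPM treated and 88.8, 72.9 and 74.2 CPM untreated. NDUFS5 had 76.2, 89.6 and 98.2 CPM treated and 164, 148 and 161 CPM untreated (-0.86 ± 0.13, adjusted p = 0.0022). Treated values of both genes were all below untreated ones, as the rule that chose them required. UQCRB had 176.5, 219 and 266 CPM treated and 479, 308 and 361 CPM untreated (-0.82 ± 0.20, adjusted p = 0.019), and was -0.46 without library A of both arms. The others included NDUFC1, ATP5J2, NDUFB4, NDUFA1, NDUFB1, UQCRH and NDUFA3. Without untreated A, 40 were lower and 1 higher, at a background of 40.5% (21.5% higher and 19.0% lower), and all 12 remained among them, while without treated A, treated B or untreated C the counts were 5, 4 and 6, with 17.7%, 11.1% and 16.4% of all genes called. UQCRB lost its call without treated A (adjusted p = 0.074) or treated B (adjusted p = 0.076). With the replicate as a block 21 were lower, and 13.2% of all genes.

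RS411 had 3 lower and none higher, at a background of 12.8% (7.58% higher and 5.19% lower) and a median of -0.09. These were COX7B (-0.73 ± 0.10, adjusted p = 0.0058), NDUFB3 (-0.68 ± 0.15, adjusted p = 0.024) and NDUFS5 (-0.48 ± 0.13, adjusted p = 0.0498), which also had the 3 smallest adjusted p in SUPB15. NDUFB3 had 37.0, 42.9 and 40.1 CPM treated and 75.5, 63.6 and 53.8 CPM untreated, and NDUFS5 had 128, 155 and 146 CPM treated and 211, 218 and 170.2 CPM untreated. Neither overlapped, as the rule that chose them required. Without untreated A the count was 15, all lower, at a background of 26.4% (15.3% higher and 11.0% lower). It was 1 without treated A, treated B or untreated B (5.52%, 2.63% and 6.67% of all genes called) and 0 without treated C (1.57%). COX7B kept its call in all of these except without treated C (adjusted p = 0.053), while NDUFB3 (adjusted p between 0.055 and 0.12) and NDUFS5 (between 0.13 and 0.18) lost theirs in all 4.

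In CEM, 20 subunit genes were lower and none higher, at a background of 36.7% (19.0% higher and 17.7% lower), with a median of -0.20 over the 75 and 0.00 over all genes. The 20 came from every complex: 8 of 37 in complex I, 2 of 4 in II, 2 of 8 in III, 4 of 11 in IV and 4 of 15 in V. NDUFC1 had 23.4, 22.6 and 23.8 CPM treated and 32.3, 37.0 and 47.9 CPM untreated (-0.74 ± 0.12, adjusted p = 0.00071). ATP5G1, which encodes the c-ring subunit, had 50.6, 47.9 and 47.2 CPM treated and 67.1, 70.5 and 84.1 CPM untreated (-0.59 ± 0.09, adjusted p = 0.00047). NDUFB4, a membrane-arm subunit, had 72.9, 76.3 and 78.0 CPM treated and 91.05, 107.5 and 129 CPM untreated (-0.52 ± 0.11, adjusted p = 0.0029). All 3 genes were chosen among those with no overlap of the groups, so their treated libraries lay below every untreated one by that rule. The treated libraries lay close together, while the untreated ones were spread, with A the lowest. Without untreated A 43 were lower and none higher, with 40.1% of all genes called (20.2% higher, the rest lower). Without treated B or C the counts were 13 and 10, with 28.4% and 27.6% of all genes called. With the replicate as a block 30 were lower and 1 higher, with 42.2% of all genes called (21.6% higher and 20.6% lower). The treated CEM libraries were also the deeper ones, and the part of depth was not tested.

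In DND41, 9 were lower and 1 higher, at a background of 26.9% (11.8% lower, 15.1% higher) and a median of -0.09. COX7B fell by 0.94 ± 0.13 and COX7A2 by 0.87 ± 0.12 (both adjusted p = 0.0012), and COX6C by 0.86 ± 0.17 (adjusted p = 0.0057), so the 3 largest falls were all of complex IV. COX7A2 had 82.1, 79.2 and 76.8 CPM treated and 132, 149.8 and 163 CPM untreated, and COX6C had 70.7, 81.5 and 72.7 CPM treated and 104, 138 and 175 CPM untreated. The groups did not overlap in either, as the rule that chose these genes required. UQCR11 had 18.6, 23.0 and 20.4 CPM treated and 12.2, 15.6 and 12.4 CPM untreated, a rise of 0.65 ± 0.15 (adjusted p = 0.013). ATP5A1, COX5A, NDUFB1, ATP5G2, UQCRC2 and ATP5C1 were lower by 0.36 to 0.50. Without untreated A, 12 were lower and 1 higher (background 34.3%, with 18.7% higher and 15.6% lower). The count was 4 without treated B, 3 without treated C and 3 without untreated C (14.1%, 11.8% and 16.8% of all genes called), and UQCR11 was not called in these 3 cases (adjusted p 0.052 to 0.076). With the replicate as a block 13 were lower and 3 higher, with 39.9% of all genes called (18.1% lower and 21.8% higher).

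In Nalm6, 4 subunit genes were higher and 1 lower at a background of 20.8% (8.96% higher and 11.8% lower) and a median of 0.15. NDUFA11, a membrane-arm subunit, had 12.2, 14.8 and 15.5 CPM treated and 3.77, 11.02 and 8.12 CPM untreated (0.92 ± 0.29, adjusted p = 0.043). UQCR11 had 10.8, 12.02 and 10.9 CPM treated and 7.11, 6.17 and 8.64 CPM untreated (0.65 ± 0.16, adjusted p = 0.016), and NDUFB9 had 83.9, 91.1 and 96.1 CPM treated and 66.1, 70.6 and 79.4 CPM untreated (0.36 ± 0.10, adjusted p = 0.033). These 3, chosen among genes without overlap of the groups, were above untreated in every treated library, and NDUFB7 was the fourth higher gene (0.33). SDHA had 152, 138 and 124 CPM treated and 208, 220.4 and 176 CPM untreated (-0.52 ± 0.14, adjusted p = 0.023). Without untreated A there were again 4 higher and 1 lower (background 24.0%, with 10.7% higher and 13.3% lower), 3 of the higher ones shared, and the value of NDUFA11 was 0.63. Counts were 2, 0 and 1 without treated A, B and C (12.8%, 10.7% and 11.3% of all genes called), 2 without untreated B (14.7%) and 8 without untreated C (16.4%). None of the 4 genes given with values kept its call throughout: without treated B their adjusted p lay between 0.072 and 0.12.

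REH had 2 higher and 1 lower at a background of 26.5% (13.2% higher, 13.3% lower) and a median of 0.03. NDUFS6, a zinc-binding subunit added late to the NADH-oxidising arm of complex I, had 83.6, 75.8 and 102 CPM treated and 60.1, 58.1 and 69.2 CPM untreated (0.52 ± 0.12, adjusted p = 0.011). NDUFB9 had 92.6, 103 and 92.5 CPM treated and 72.6, 80.5 and 87.2 CPM untreated (0.30 ± 0.10, adjusted p = 0.041). SDHA had 138, 131 and 145 CPM treated and 166, 187 and 238 CPM untreated (-0.47 ± 0.13, adjusted p = 0.018). None of the 3 overlapped between groups, as the rule that chose them required. NDUFB9 lost its call without any of treated A, treated B, treated C, untreated A or untreated B (adjusted p 0.065 to 0.19). SDHA lost its call without treated B (adjusted p = 0.074), treated C (adjusted p = 0.050) or untreated C (adjusted p = 0.064), and NDUFS6 without treated C (adjusted p = 0.057) or untreated B (adjusted p = 0.056). With the replicate as a block 7 were higher and 5 lower, with 43.0% of all genes called (21.8% higher and 21.2% lower). The count was 6 without untreated A (28.5% of all genes called) and 1 without treated B, treated C or untreated B (15.2%, 15.7% and 15.5%).

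In 697 no subunit gene passed the test, at a background of 2.40% of 15306 genes (1.55% higher and 0.849% lower), although the median was 0.36 and 58 of 75 values were positive. At an unadjusted p under 0.05 there were 5, and DESeq2 called 0. Without untreated library 1 the count was 4 at a background of 23.1% (11.4% higher and 11.8% lower), with NDUFB9, NDUFS6 and COX8A higher and SDHA lower, and the median of the 75 was 0.19. NDUFB9 had 197, 200.2 and 189.9 CPM treated and 95.7, 142 and 152 CPM untreated, and SDHA had 119.6, 95.5 and 97.0 CPM treated and 157, 154 and 138 CPM untreated. Neither overlapped between groups even with library 1 included.

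SDHA was lower in treated libraries of 6 lines, with no overlap between groups in Nalm6, SUPB15, RS411, REH, 697 and CEM. DND41 had 137, 115 and 119.8 CPM treated and 109.9, 104 and 133 CPM untreated, which overlapped. UQCR11 was higher without overlap in 5 lines, Nalm6, SUPB15, 697, CEM and DND41, although the treated and untreated values of CEM lay close together (11.1, 11.8 and 11.1 against 10.5, 10.8 and 10.4 CPM). Counting any gene whose groups did not overlap, 35 subunit genes were below and 2 above untreated in CEM, where 47.7% of all genes did not overlap, and 24 were above and 1 below in 697 (32.8% of all genes). The numbers above and below were 15 and 2 in Nalm6 (39.1%), 1 and 20 in SUPB15 (44.1%), 0 and 14 in RS411 (36.5%), 4 and 3 in REH (39.9%), and 2 and 18 in DND41 (42.8%).

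**Figure D4:**
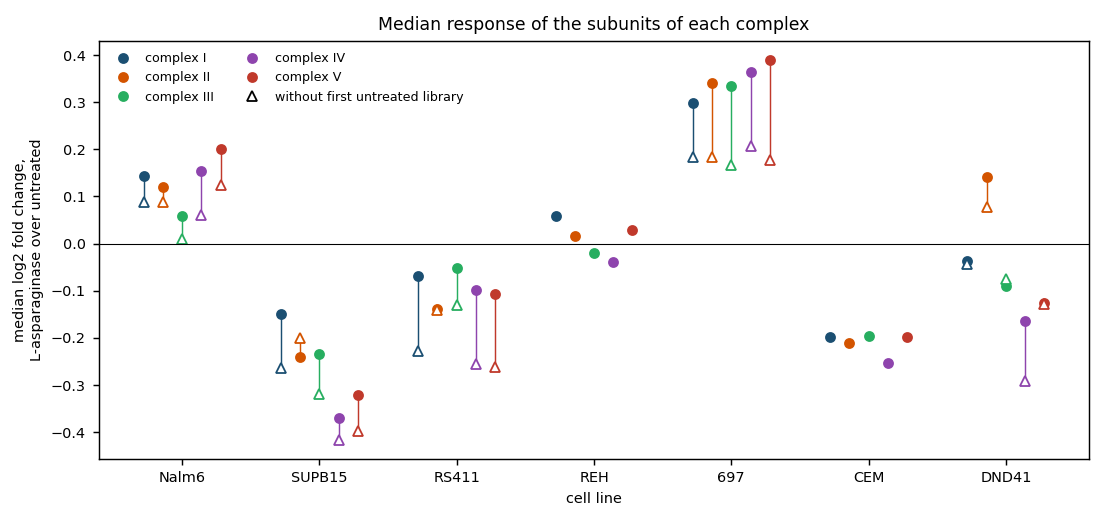
Median log2 fold change, L-asparaginase over untreated, of the subunit genes of each complex (colour) in each line (x axis); filled circles use all libraries and open triangles leave out the first untreated library in 5 lines. In 697 and Nalm6 all 5 medians are above 0 in both versions, in SUPB15, RS411 and CEM all are below 0, and those of 697 lie between 0.17 and 0.21 with the library left out and between 0.30 and 0.39 with it.

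By complex, the medians lay nearer each other in CEM and 697 than in SUPB15 and DND41. In SUPB15 they ran from -0.15 (complex I) to -0.37 (complex IV), in CEM from -0.20 (complex III) to -0.25 (complex IV), and in 697 from 0.30 (complex I) to 0.39 (complex V). In DND41 complex II stood at 0.14 while complex IV stood at -0.16 (-0.29 without the first untreated library). Differences between complexes within a line were not tested.

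Whether the response differed between lines was tested directly. The interaction of drug and line was called for 9 subunit genes, at a background of 19.4% of 20983 genes. They included COX7B (adjusted p = 1.1e-05), NDUFB3 (adjusted p = 0.0011), COX7A2 (adjusted p = 0.0066), NDUFS5 (adjusted p = 0.013), NDUFC2 (adjusted p = 0.025), COX6C (adjusted p = 0.039), SDHA (adjusted p = 0.041) and NDUFS6 (adjusted p = 0.047). COX7B in SUPB15 (-0.67 ± 0.14, adjusted p = 0.0043) and DND41 (-0.54 ± 0.14, adjusted p = 0.017) was lower than the mean response of the other lines, and in 697 (0.77 ± 0.14, adjusted p = 0.00050) and Nalm6 (0.62 ± 0.14, adjusted p = 0.010) it was higher. NDUFB3 (-0.75 ± 0.15) and NDUFS5 (-0.66 ± 0.17) were lower than elsewhere in SUPB15. COX7A2 (-0.82 ± 0.20) and COX6C (-0.76 ± 0.22) were lower than elsewhere in DND41, where SDHA was higher than elsewhere (0.50 ± 0.13). NDUFC2, a membrane-arm subunit, had log2 fold changes between -0.49 (SUPB15) and 0.40 (REH) in this fit. In 697, 9 subunit genes were higher relative to the other lines and none lower, at a background of 9.11% (4.31% higher and 4.79% lower), and 3 of the 9 had a called interaction. These calls depended on untreated 697 library 1. Without it 2 subunit genes were higher (background 6.13%, with 3.14% higher and 2.99% lower), of which COX7B alone was among the 9 (0.65, adjusted p = 0.0032), and the median of the 9 was 0.40, against 0.65 with it. Without the first untreated libraries of 5 lines 17 were higher, 6 of the 9 among them (background 10.7%, with 5.66% higher and 5.02% lower). With all libraries this contrast was called for 1 subunit gene in Nalm6 (background 2.51%), 3 in SUPB15 (3.03%), 4 in DND41 (5.95%) and none in RS411, REH and CEM (1.01%, 2.25% and 1.17%). Without the 5 first untreated libraries the interaction was called for 29 (background 32.5%), with the replicate as a block for 19 (25.7%) and without SUPB15 for 4 (16.0%). Leaving out a single library gave 14 (untreated SUPB15 A) to 5 (treated Nalm6 B, untreated SUPB15 B, treated 697 library 2, treated CEM B or C, or treated DND41 C).

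Before treatment, the level differed between lines for 38 of the 75 subunit genes, at a background of 86.7% of 20983 genes. The highest line mean was 1.62 times the lowest in the median subunit gene, and 2.64 times in the median of 12168 genes with a mean of at least 2 CPM. By complex the call was made for 22 of 37, 3 of 4, 4 of 8, 4 of 11 and 5 of 15 genes of complexes I to V. Line and any batch of sequencing cannot be told apart here.

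With all libraries UQCRB had the widest range among the genes called, 4.92-fold, with 617 ± 469 CPM in 697 (SD, n = 3 here and below), 387 ± 132 in RS411, 383 ± 87.8 in SUPB15, 228 ± 41.2 in REH, 204 ± 21.5 in DND41, 195 ± 42.4 in CEM and 126 ± 11.02 in Nalm6. The 697 mean rested on library 1 (1158, 373 and 321 CPM). Without the first untreated libraries of 5 lines it was 347 CPM and the range 2.89-fold, below those of NDUFS5 (4.39-fold) and UQCR11 (3.16-fold). With all libraries the means with their SD overlapped among 697, RS411 and SUPB15, and among REH, DND41 and CEM. Pairs of lines were not compared by a test, and the wide SD of 697 rested on its library 1. NDUFS5 was highest in RS411 at 199.7 ± 25.9 CPM and lowest in Nalm6 at 46.0 ± 4.56 CPM, a 4.34-fold range, with the other 5 lines between 123 and 158 CPM. NDUFS7, a core subunit with the iron-sulfur cluster next to ubiquinone, was highest in CEM at 59.4 ± 4.09 CPM and lowest in 697 at 15.4 ± 10.3 CPM, a 3.85-fold range. Its 697 mean was lowered by library 1 (3.635, 22.41 and 20.27 CPM). Without the first untreated libraries of 5 lines it was 21.3 CPM and the range 2.78-fold. UQCR11 was highest in RS411 at 14.9 ± 1.80 CPM and lowest in 697 at 4.41 ± 1.10 CPM. All 4 passed the test between lines, with adjusted p at most 0.00018, and again without the first untreated libraries.

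**Figure D5:**
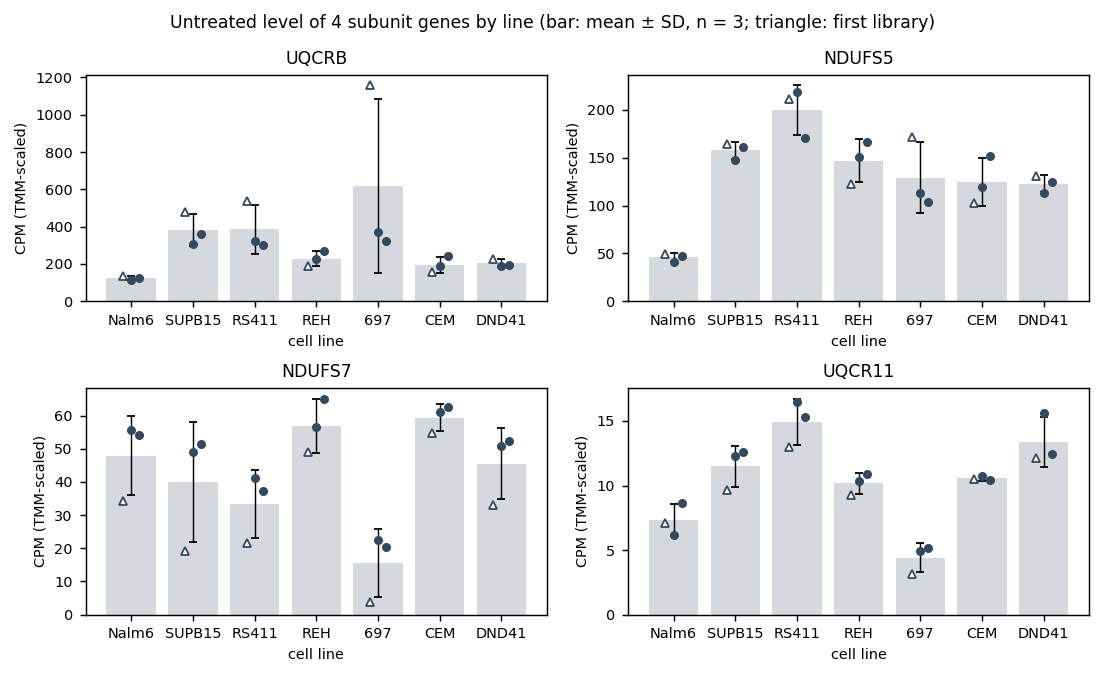
Untreated level in TMM-scaled CPM (y axis) of the 4 subunit genes with the widest called range between lines (x axis); bars are the mean and SD, n = 3, points are libraries and the triangle is library A or 1. Nalm6 is lowest for UQCRB and NDUFS5, and 697 is lowest for NDUFS7 and UQCR11.

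On a scale of CPM per kilobase of transcript, the median untreated level of the 75 genes was 112. With all libraries the highest were UQCRB at 514, COX7C at 418, ATP5B at 401 and UQCRH at 389. Without the first untreated libraries of 5 lines UQCRB was at 415, below COX7C at 451 and ATP5B at 443. The lowest with all libraries were NDUFA7 at 0.750 and NDUFA13 at 1.11, the only 2 with a mean under 2 CPM. The counting tool and its annotation were not given, and whether the counting lowered these 2 values was not tested. COX4I1, ATP5L and ATP5C1 had the narrowest ranges across untreated lines with all libraries, the highest line mean 1.21, 1.24 and 1.26 times the lowest, and 1.37, 1.16 and 1.31 times without the first untreated libraries.

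The subunit genes are short, with a median transcript length of 705 bases against 2037 for all tested genes with a length, and a GC content of 51.3% against 49.8%. Genes called lower on average had a median length of 605 bases and a GC content of 48.5%, those called higher 807 bases and 51.6%, and those with no call 704.5 bases and 52.1%. Across the 75 genes, which share all libraries, Pearson's r of the average log2 fold change was 0.41 with GC content and 0.14 with log2 length. With trends over length and GC removed from the counts, 9 subunit genes were higher and 25 lower on average, against 18.8% and 21.9% of all genes.

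Genes that build or run the chain, but are not among the 75, were listed by function. Of 10 tested subunits and paralogs outside the rule 2 were higher and 2 lower (median 0.09): NDUFA4L2, a paralog of NDUFA4, was higher at 0.70 ± 0.10, and UQCRHL (-0.25 ± 0.07) and USMG5, a small ATP synthase subunit (-0.24 ± 0.07), were lower. UQCRHL is a near copy of UQCRH, so its reads and those of UQCRH may be mixed. Complex I assembly factors were 5 higher and 1 lower of 14 (median 0.03), with NDUFAF4 at 0.55 ± 0.07, ECSIT at 0.34 ± 0.09 and NDUFAF2 at -0.40 ± 0.12. Assembly factors of complexes II, III and V were 1 higher and 2 lower of 13 (median -0.08): UQCC1, needed for cytochrome b, at 0.36 ± 0.05, SDHAF4 at -0.28 ± 0.10 and LYRM7 at -0.10 ± 0.04. Those of complex IV were 9 higher and 4 lower of 23 (median 0.09), with COA5 at 0.33 ± 0.06, COX15, an enzyme of heme A synthesis, at 0.29 ± 0.05 and the copper chaperone COX17 at -0.37 ± 0.06.

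The list of regulators of mitochondrial biogenesis and mitochondrial DNA transcription had 7 higher and 2 lower of 12, with a median of 0.22. MTERF3, of the mitochondrial transcription termination factor family, was higher at 0.95 ± 0.07 and the nuclear receptor ESRRA at 0.66 ± 0.15, and the coactivator PPARGC1B was lower at -0.62 ± 0.13. TCA cycle enzymes other than complex II had 1 higher and 3 lower of 13 (median -0.06): the succinyltransferase DLST at 0.22 ± 0.05, and CS (citrate synthase, -0.22 ± 0.04), IDH3G (-0.41 ± 0.04) and SUCLG1 (-0.19) lower. Mitochondrial ribosomal proteins, which make the mitochondrially encoded subunits, had 24 higher and 23 lower of 77 (median 0.05), with MRPL49 and MRPL15 both at 0.46 and MRPL41 at -0.55 ± 0.11. All values in these 2 paragraphs are average log2 fold changes ± SE with adjusted p under 0.05, beside the same background of 17.8% higher and 19.6% lower. SESN2 (2.59 ± 0.17), TRIB3 (2.37 ± 0.16) and DDIT3 (2.28 ± 0.08), of the stress list, changed more than any of the 75 subunit genes.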

How the data were processed

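RNA-seq libraries of 7 ALL cell lines were used, 42 in 14 groups. The deposited tables hold raw read counts per gene symbol, whole numbers with no normalization by the authors, 1 table per line. Per the submitters' processing notes the build was hg19. The aligner, the counting tool, its annotation and its strand setting were not given in the sources used here. Columns were matched to samples by name, with 0 columns unmapped, although the letters A to C of the columns appear in no sample label. Tables hold 26 to 28 date-like names each, and 2 repeated names in 697 and CEM. No libraries of a group agreed within sampling noise (lowest chi-square per degree of freedom 15). Totals were 15.07 to 77.14 M with a median of 40.28 M, and each member had between 18 and 32349 counts in its median library.

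Counts were tested with edgeR 4.0.16 in R 4.3.3 (TMM scaling, filterByExpr with a minimum count of 10, quasi-likelihood F-test, Benjamini-Hochberg over all genes, adjusted p under 0.05). Each line was fitted alone, and all 42 libraries together, with a coefficient per group, for the mean of the 7 lines, the interaction, each line against the others and the untreated level. An SE is the log2 fold change divided by the root of F. CPM uses TMM library sizes. Lengths and GC content come from GENCODE v29 (median transcript, GRCh38), which is not the build of the counts. The procedure was tested on simulated data.

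Genes given with values were chosen by rule: a core subunit of each complex, the 4 largest average changes called per complex, the 4 largest called changes per line without overlap of the groups, the 6 widest called ranges between lines, genes called the same way in 4 or more lines, the 4 widest called untreated ranges, and up to 3 called genes of each other list. Genes named beyond these to complete a count were chosen after their values were seen. Values of 1 member are not reported here by name, although it enters the fits and counts. The members and lists were chosen with earlier results of these data known.

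Alternatives were DESeq2 size factors, DESeq2 1.42.0, no filter, length and GC trends (splines with 5 degrees of freedom) removed, a replicate block, and leaving out libraries or lines. Joint fits without 1 library or 1 line kept the genes and the dispersion trend of the fit to all 42, except for 697 against the other lines. Letters were checked as pairs over 8511 genes of at least 3 log2 CPM. In SUPB15, RS411, REH, CEM and DND41 every same-letter pair correlated over 0.1 (lowest 0.15, 0.10, 0.33, 0.17 and 0.35), so those letters were taken to pair the libraries, from the data and not from the labels. In RS411 the highest correlation of libraries with other letters was 0.24, and not every library correlated best with its own letter; in the other 4 every library did. In Nalm6 (lowest 0.05) and 697 (lowest -0.07) the letters or numbers were not taken as pairs. The main tests did not use the pairing, and only the replicate block did.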

Additional observations from a re-analysis of the deposited data

Results flagged for a closer look

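The response to L-asparaginase differed between the 7 lines for 9 of the 75 subunit genes by the interaction test in edgeR with Benjamini-Hochberg adjustment. The same test called 19.4% of all 20983 genes. Among them, the adjusted p was 1.1e-05 for COX7B, 0.0011 for NDUFB3, 0.0066 for COX7A2, 0.013 for NDUFS5, 0.025 for NDUFC2, 0.039 for COX6C, 0.041 for SDHA and 0.047 for NDUFS6. The range of log2 fold change across lines was 1.23 for COX7B, 0.95 for NDUFB3, 1.26 for COX7A2, 0.96 for NDUFS5, 0.88 for NDUFC2 and 1.16 for COX6C. COX7B kept its call in every alternative run. The call of NDUFB3 was lost without SUPB15 (adjusted p = 0.064), that of NDUFS5 without SUPB15 (0.20) or Nalm6 (0.057), and that of COX7A2 without DND41 (0.12). NDUFC2 lost its call without SUPB15 (0.11), RS411 (0.052) or treated SUPB15 library A (0.061). COX6C lost its call without DND41 (0.24), 697 (0.094) or Nalm6 (0.073), and without any of 15 single libraries. Groups of 3 were not examined for single outlying values.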

How the results depend on the processing

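On average over the 7 lines, 23 subunit genes were called. The count was 36 without the A or 1 libraries of both arms, 34 without the first untreated libraries of 5 lines, 34 with length and GC trends removed, 24 by DESeq2, 16 without SUPB15, and 22 to 29 without any single library. COX7B, NDUFB3, SDHA, UQCR11, UQCRC2, UQCRB, ATP5J2, ATP5C1 and NDUFS5 kept their average call in every alternative run. UQCRC1 turned to -0.059 without the first untreated libraries, -0.088 without the A or 1 libraries of both arms and -0.020 without 697. COX4I1 turned to 0.031 without SUPB15 and 0.015 without DND41, and SDHB to -0.011 without REH and -0.013 without 697. None of these 3 was called, and the cause was not tested.

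In Nalm6 the count of 5 became 8 with no filter, 9 with trends removed and 8 by DESeq2, and 0 to 8 without single libraries. In SUPB15 the count of 12 became 41 without the first untreated library and 42 without library A of both arms, and 4 to 41 without single libraries. In RS411 the count of 3 became 5 with no filter, 15 without the first untreated library and 16 without A of both arms, and 0 to 15 without single libraries. In REH the count of 3 became 8 with trends removed and 6 without A of both arms, and 1 to 6 without single libraries. In 697 the count of 0 became 4 without the first untreated library and 1 without library 1 of both arms, and 0 to 4 without single libraries. In CEM the count of 20 became 32 with trends removed and 40 without A of both arms, and 10 to 43 without single libraries. In DND41 the count of 10 became 19 without A of both arms, and 3 to 13 without single libraries. The interaction count of 9 became 29 without the first untreated libraries, 17 with trends removed, 34 without A or 1 of both arms, 4 without SUPB15 and 20 by DESeq2, and 5 to 14 without single libraries. The count of 9 for 697 against the other lines became 2 without untreated 697 library 1 and 17 without the first untreated libraries of 5 lines. The untreated count of 38 stayed between 33 and 57. The share of all genes called moved too over the same settings: it was 0.0320% to 23.1% for 697, between 1.57% and 33.7% for RS411, 10.7% and 25.2% for Nalm6, 11.1% and 47.4% for SUPB15, 11.8% and 44.4% for DND41, 15.2% and 43.0% for REH, 21.6% and 42.2% for CEM, 10.1% and 37.4% for the interaction, and at most 41.3% for the average. The cause of these shifts was not tested.

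With the replicate block the counts were 13 in Nalm6, 21 in SUPB15, 3 in RS411, 12 in REH and 0 in 697. They were 31 in CEM, 16 in DND41, 28 on average and 19 for the interaction. The 2 lines without pairing share only a letter or number. With this block the share of all genes called was, in the same order, 25.2%, 26.7%, 16.9%, 43.0%, 0.105%, 42.2%, 39.9%, 39.2% and 25.7%. ATP5B was then called on average (0.20, adjusted p = 0.046). The block ended the call of no gene given with values.

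Low counts of NDUFA7 and NDUFA13, 0.451 and 0.916 CPM in untreated lines, limit what could be detected there.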
